A study of Homo sapiens with 6 samples.

Results

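The genes described here are 10 members of the NF-kB pathway: the 5 subunits of the transcription factor (NFKB1, NFKB2, REL, RELA and RELB), 3 inhibitors of the IkB family (NFKBIA, NFKBIB and NFKBIE) and the feedback enzymes TNFAIP3 and BIRC3. They were taken by gene symbol from tables of reads counted per gene. All 10 were found among the 58395 genes counted, and all 10 were among the 16542 genes that passed the filter on low counts. RNA was sequenced from 3 samples of THP-1 cells given 1 µM monensin for 16 h and from 3 samples labelled as having no exposure. THP-1 is a human line from an acute monocytic leukaemia, grown here in medium with 10% fetal bovine serum; monensin is an ionophore that exchanges sodium ions for protons across membranes. The label of the untreated samples names no vehicle, so vehicle and monensin cannot be told apart.

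NF-kB proteins bind DNA as pairs of subunits. In resting cells IkB proteins hold these pairs in the cytoplasm; after a signal from a Toll-like, TNF or interleukin receptor, the IKK kinase complex marks IkB for destruction and the pair enters the nucleus, where in monocytes it drives cytokine, adhesion and survival genes. A separate route runs through the kinase encoded by MAP3K14, which leads to cleavage of the NFKB2 precursor and release of pairs that hold RELB. Several inhibitors are themselves NF-kB target genes, which closes a negative feedback loop. Destruction of IkB, cleavage of precursors and movement to the nucleus take place in proteins and were not measured by these transcript counts.

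With monensin, 6 of the 10 members rose, 2 fell and 2 were not called. Those that rose were NFKB2, RELB, NFKBIA, NFKBIE, TNFAIP3 and BIRC3, and those that fell were NFKB1 and REL. RELA and NFKBIB were not called. BIRC3 rose 3.78-fold, TNFAIP3 3.60-fold and NFKB2 2.95-fold, whereas REL fell to 0.523 of its untreated level. Calls are those of edgeR's quasi-likelihood test with Benjamini-Hochberg adjustment over all 16542 tested genes, at an adjusted p under 0.05. Of all tested genes 34.1% were called higher and 33.7% lower, 67.8% in all, so a call alone was common in this comparison, and 8 of 10 called members is near that share. The groups did not overlap for 9 of the 10 members and for 71.1% of tested genes. A rise of at least 2-fold was called for 9.41% of tested genes and for 5 of the 10 members.

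The 6 libraries held between 22975888 and 25710513 counts in genes. On principal component analysis the groups separated along the first axis (82.2% of the variance), and no library lay with the other group. All 10 myeloid markers that were examined had counts in every library. Among them, SPI1 had 346 to 385 CPM (counts per 1000000 counts in genes, on TMM-adjusted library sizes) with monensin and 279 to 293 CPM untreated. Of these 10 markers, 4 were higher in every monensin library than in any untreated one (SPI1, CEBPA, CD68 and FCGR1A), 3 were lower (LYZ, CD33 and MPO) and 3 overlapped. Such separation was common, since the groups did not overlap for 71.1% of all tested genes. CEBPA, a myeloid transcription factor, had 793 to 805 CPM with monensin and 488 to 509 CPM untreated. LYZ, the lysozyme gene, had 270 to 318 CPM with monensin and 775 to 804 CPM untreated. The groups also differed in the share of alignments assigned to no gene, at 21.2% to 22% with monensin and 19.1% to 19.8% untreated. The part of these markers and of that share in the results was not tested. Markers of T cells, epithelium and fibroblasts reached at most 1.28 CPM, for COL1A1, which had 1.03 to 1.28 CPM with monensin and 0.386 to 0.842 CPM untreated, and CD3E, EPCAM, CDH1 and COL1A2 had 0 counts in all 6 libraries. In bulk RNA, fewer cells that express a gene and less RNA per cell cannot be told apart.

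**Figure D1:**
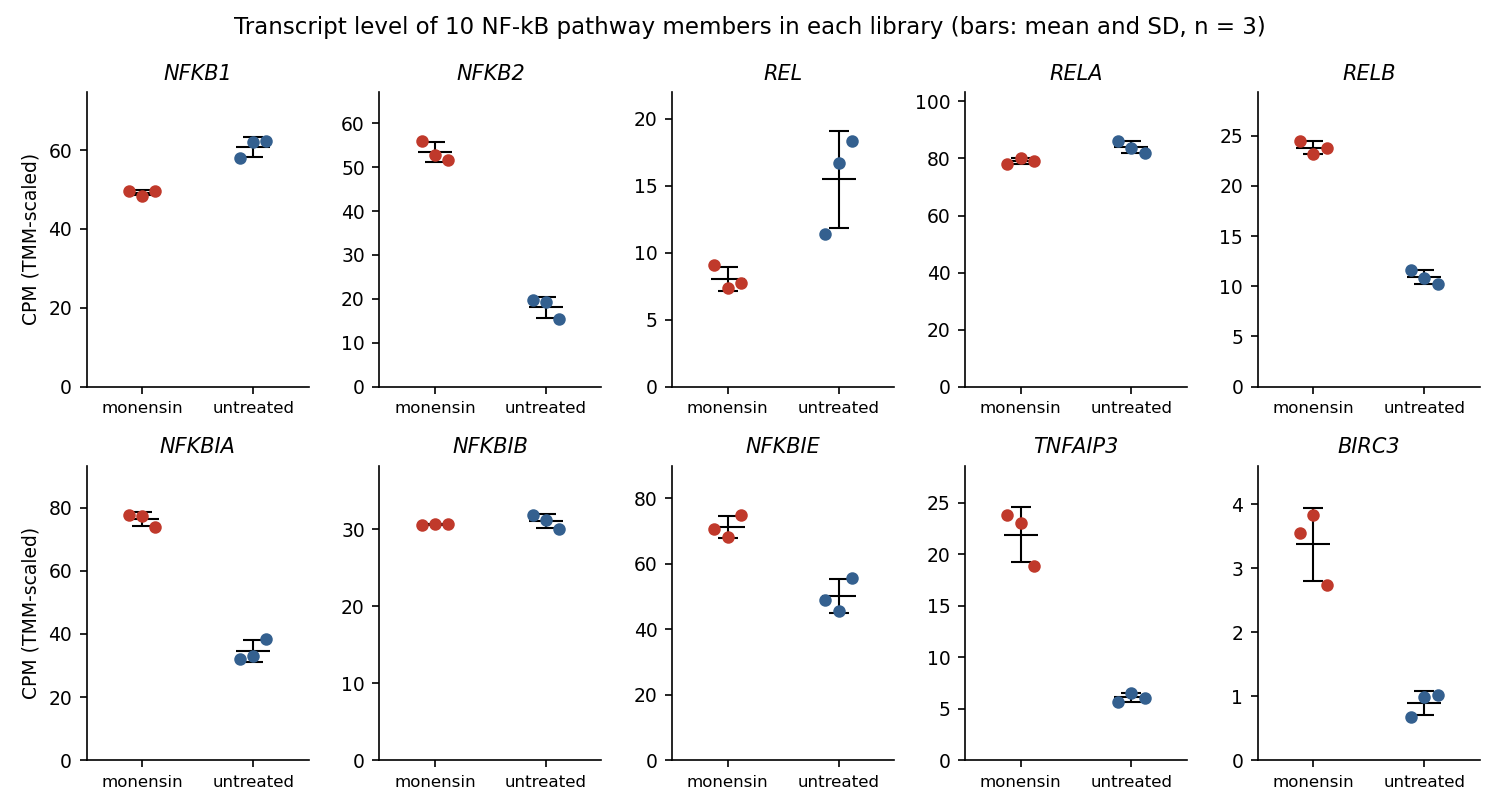
Level of each member in every library, in TMM-scaled CPM, with monensin on the left and untreated on the right of each panel; points are libraries and bars the mean and SD of 3. The groups are separate for 9 members and overlap for NFKBIB.

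The start regions of several members match the consensus of sites that NF-kB binds, and these are shown because the members are both parts and textbook targets of the pathway. RefSeq windows on GRCh38.p14, from 250 bases before to 50 after each annotated transcript start, were found for 8 of the 10 members, as 13 windows. RELB and NFKBIE had no window and were not searched. The kB consensus, a run of G with a purine, a short spacer and a pyrimidine-rich end, was searched on both strands. It was matched in 8 of the 13 windows and in 7 of the 8 members; among all 35116 windows of this length 11.3% held a match, as did 13.3% of the 27305 genes with a window. The stretches below run 5′ to 3′ along the gene's strand, end before the RefSeq transcript start, and have the matched bases in capitals.
NFKB2, the third annotated start, plus strand: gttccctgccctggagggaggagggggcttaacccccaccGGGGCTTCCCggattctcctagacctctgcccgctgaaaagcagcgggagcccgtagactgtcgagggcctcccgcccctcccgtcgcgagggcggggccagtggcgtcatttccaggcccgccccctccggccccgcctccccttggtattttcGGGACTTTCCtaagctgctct
NFKBIA, minus strand: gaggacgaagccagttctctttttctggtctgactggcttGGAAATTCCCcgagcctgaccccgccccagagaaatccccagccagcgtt
TNFAIP3, plus strand: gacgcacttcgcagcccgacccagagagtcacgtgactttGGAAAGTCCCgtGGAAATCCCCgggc
BIRC3, plus strand: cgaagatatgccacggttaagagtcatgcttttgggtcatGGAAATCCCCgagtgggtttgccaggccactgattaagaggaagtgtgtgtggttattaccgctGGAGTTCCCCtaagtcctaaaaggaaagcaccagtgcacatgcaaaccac
NFKB1, the first annotated start, plus strand: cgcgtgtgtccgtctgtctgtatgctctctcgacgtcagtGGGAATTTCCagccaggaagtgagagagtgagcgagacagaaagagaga
REL, plus strand: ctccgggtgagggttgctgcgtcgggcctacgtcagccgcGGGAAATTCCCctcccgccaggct
NFKBIB, the second annotated start, plus strand: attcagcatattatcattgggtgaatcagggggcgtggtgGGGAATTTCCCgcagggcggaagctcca

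These stretches lie at chr10:102395489-102395704 (NFKB2), chr14:35404781-35404870 (NFKBIA), chr6:137867152-137867217 (TNFAIP3), chr11:102317245-102317398 (BIRC3), chr4:102501270-102501358 (NFKB1), chr2:60881487-60881550 (REL) and chr19:38899901-38899968 (NFKBIB). In REL and NFKBIB, matches on opposite strands overlap by all but 1 base and are printed as 1 run of capitals. Matches therefore stood in front of members that rose (NFKB2, NFKBIA, TNFAIP3 and BIRC3), members that fell (NFKB1 and REL) and a member that was not called (NFKBIB). The second annotated start of NFKB2 also held matches, with first bases at -107, -106 and -78 from the start, and is not printed. The first NFKB2 start held no match. The windows of RELA held no match to these letters. A match is a description of the sequence, and binding was not measured.

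**Figure D2:**
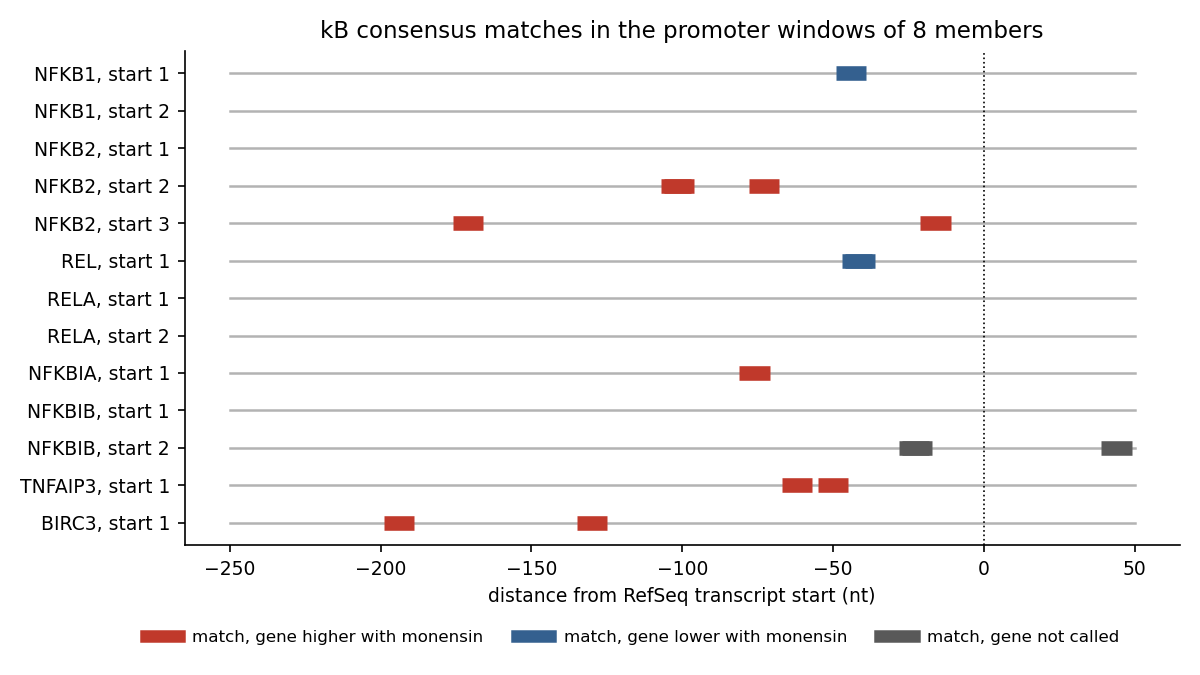
Position of kB consensus matches in the 13 promoter windows of 8 members, as distance in nucleotides from the RefSeq transcript start (dotted line); starts of a gene are numbered in the order of the RefSeq table. Bars are matches, coloured by the call of the gene in the monensin comparison, and they occur near RefSeq starts of genes that rose, fell and were not called.

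Among the subunits, the sharpest contrast was between the 2 that are made as long precursors. NFKB2, whose precursor acts as an inhibitor until it is cleaved, had 55.9, 52.8 and 51.5 CPM in the monensin libraries, against 19.7, 19.2 and 15.3 CPM in the untreated libraries. Every monensin library was far above every untreated one. NFKB2 rose by 1.56 ± 0.08 on the log2 scale (SE; edgeR adjusted p = 1.01e-10), more than 96.4% of tested genes. NFKB1, which encodes the other precursor and the usual partner of RELA, had 49.7, 48.4 and 49.6 CPM with monensin and 57.9, 62.1 and 62.3 CPM without. The groups did not overlap, and NFKB1 fell by 0.30 ± 0.05 on the log2 scale (SE; edgeR adjusted p = 6.67e-05). The order of these genes thus differed between the groups: per kilobase of exon, NFKB2 stood at 11.9 ± 0.506 RPKM and NFKB1 at 7.87 ± 0.112 RPKM with monensin, against NFKB2 at 4.03 ± 0.536 RPKM and NFKB1 at 9.71 ± 0.397 RPKM untreated (SD, n = 3). NFKB2 lies on the plus strand of chromosome 10 from 102394110 to 102402529, and NFKB1 on the plus strand of chromosome 4 from 102501329 to 102617302 (GRCh38, GENCODE 29).

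RELB, the subunit that pairs chiefly with the NFKB2 product, moved with NFKB2. It had 24.5, 23.2 and 23.8 CPM in the monensin libraries, against 11.7, 10.8 and 10.3 CPM in the untreated ones, with no overlap. It rose by 1.12 ± 0.07 on the log2 scale (SE; edgeR adjusted p = 1.32e-09), which is 2.18-fold with a 95% interval from 1.96 to 2.41. RELB lies on the plus strand of chromosome 19 from 45001430 to 45038198.

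RELA, the subunit with the strongest activating domain in most cells, had 78.1, 80.1 and 79.0 CPM with monensin and 86.1, 83.8 and 81.9 CPM untreated. The groups did not overlap, but RELA was not called: its log2 fold change was -0.09 (SE 0.04, adjusted p = 0.102), with a 95% interval from -0.18 to 0.0094. The annotated transcripts of RELA have a GC content of 60.3%. In a fit that took trends in GC content and length out of each library, RELA was called lower, at -0.28 (edgeR adjusted p = 1.00e-05). RELA lies on the minus strand of chromosome 11 from 65653596 to 65663094.

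REL, the subunit best known from lymphocytes and from interleukin-12 genes in macrophages, had 9.08, 7.40 and 7.71 CPM with monensin. Untreated it had 11.4, 16.7 and 18.3 CPM, the widest relative spread of any member in that group (23.4% of the mean). The untreated library with 11.4 CPM was still above all monensin libraries. REL fell by 0.94 ± 0.14 on the log2 scale (SE; edgeR adjusted p = 2.77e-05), a lower value than in all but 4.60% of tested genes. On leaving out that library it fell by 1.12 (adjusted p = 2.62e-08). REL lies on the plus strand of chromosome 2 from 60881521 to 60931610. An annotated non-coding gene on the same strand, AC010733.2, covers 5702 of its 13170 exonic bases and has 0 counts in all 6 libraries. If reads in the shared bases were given to neither gene, the level of REL per length is understated; over the unshared 7468 bases it was 1.08 ± 0.119 RPKM with monensin and 2.07 ± 0.486 RPKM untreated (SD, n = 3), in place of 0.612 ± 0.0678 RPKM with monensin and 1.17 ± 0.275 RPKM untreated. That shorter length was tried after seeing the data, and it leaves the fold change as it was.

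**Figure D3:**
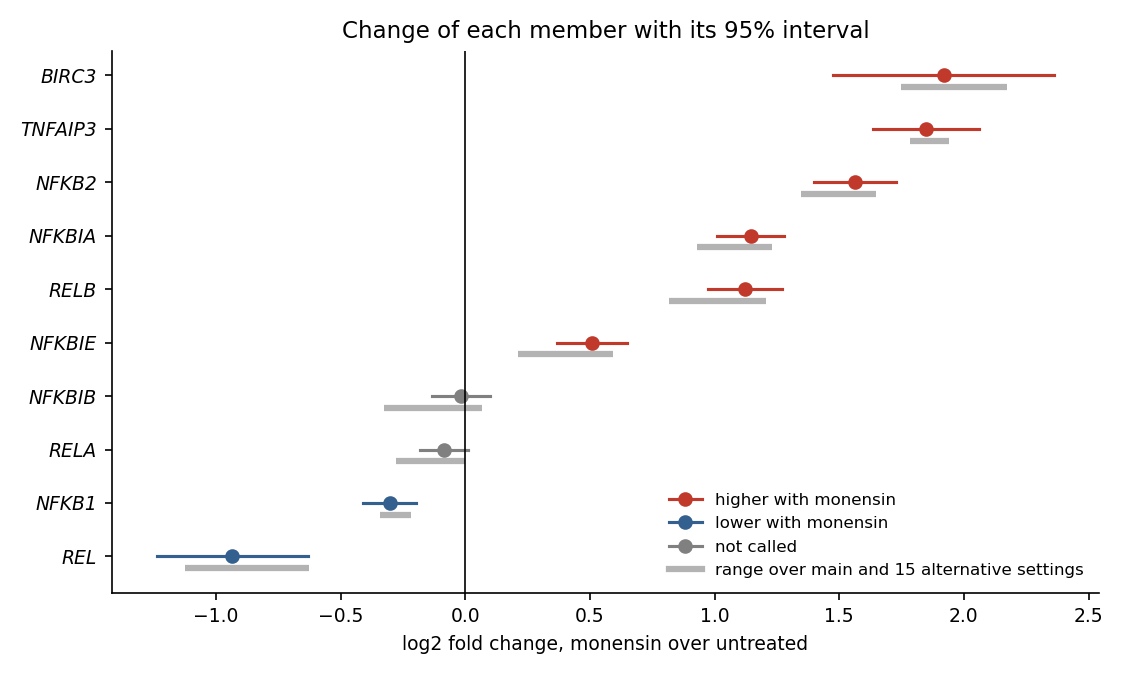
Log2 fold change of each member, monensin over untreated (points), with its 95% interval from the edgeR fit (coloured lines) and the range over the main and 15 alternative settings (grey bars). BIRC3, TNFAIP3 and NFKB2 are highest, REL is lowest, and the grey bar of NFKBIB extends to both sides of 0.

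The 3 IkB genes differed among themselves. NFKBIA encodes IkB alpha, the inhibitor that is destroyed and made anew fastest after a signal. It had 77.8, 77.4 and 73.7 CPM in monensin libraries and 32.0, 33.1 and 38.5 CPM in untreated libraries, so the lowest monensin library lay well above the highest untreated one. It rose by 1.14 ± 0.06 on the log2 scale (SE; edgeR adjusted p = 3.66e-10). NFKBIE, which encodes IkB epsilon, had 70.5, 68.3 and 75.0 CPM with monensin and 48.8, 45.5 and 55.8 CPM without. The groups were separate and the rise was smaller, 0.51 on the log2 scale (SE 0.07, adjusted p = 5.64e-06). In the fit without GC and length trends the rise was 0.21 (adjusted p = 0.00333).

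NFKBIB encodes IkB beta, which is destroyed more slowly and is not a classical target of the pathway. Its values were 30.5, 30.7 and 30.6 CPM with monensin and 31.9, 31.1 and 30.02 CPM untreated. The groups overlapped, and the log2 fold change was -0.02 (SE 0.05, adjusted p = 0.786) with a 95% interval from -0.13 to 0.098. That interval leaves out changes of more than 1.07-fold upward or to less than 0.911 of the untreated level, for the counts as scaled by TMM. In the fit without GC and length trends, however, NFKBIB was called lower at -0.33 (adjusted p = 3.61e-05); the GC content of its transcripts is 62.8%. NFKBIA lies on the minus strand of chromosome 14 from 35401511 to 35404749, NFKBIB on the plus strand of chromosome 19 from 38899700 to 38908893 and NFKBIE on the minus strand of chromosome 6 from 44258166 to 44265788.

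TNFAIP3 and BIRC3 had the largest changes of the 10. TNFAIP3 encodes an enzyme that edits ubiquitin chains and shuts down signalling to IKK. It had 23.8, 23.0 and 18.8 CPM in the monensin libraries, against 5.69, 6.56 and 6.03 CPM in the untreated ones. The third monensin library was lower than the others but well above every untreated one. TNFAIP3 rose by 1.85 ± 0.10 on the log2 scale (SE; edgeR adjusted p = 2.43e-10), more than 97.6% of tested genes. BIRC3 encodes a ubiquitin ligase that acts in TNF receptor complexes and helps keep the MAP3K14 kinase low. Its counts were 91, 96 and 64 with monensin and 17, 23 and 25 untreated, or 3.54, 3.84 and 2.74 CPM against 0.682, 0.986 and 1.01 CPM. The groups were well apart, and again the third monensin library was the lowest of its group. BIRC3 rose by 1.92 ± 0.21 on the log2 scale (SE; edgeR adjusted p = 7.46e-07); its low counts gave it the widest interval of the members, from 2.78-fold to 5.14-fold. BIRC2, its close relative with a similar domain structure, had 51.6 ± 1.68 CPM with monensin and 43.3 ± 1.27 CPM untreated (SD, n = 3), a log2 fold change of 0.25 (adjusted p = 0.000437). TNFAIP3 lies on the plus strand of chromosome 6 from 137867188 to 137883312, and BIRC3 on the plus strand of chromosome 11 from 102317450 to 102339403.

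Ratios of transcripts within a library do not depend on how libraries are scaled to each other, so the make-up of the pathway was also described by level per length. Of the summed RPKM of the 5 subunits, NFKB2 made up 28.7%, 27.8% and 27.2% in monensin libraries and 12.9%, 12.5% and 10.3% in untreated libraries. RELB made up 18.4% ± 0.303 with monensin and 10.6% ± 0.563 untreated, while RELA made up 33.9% ± 0.897 with monensin and 45.3% ± 0.794 untreated and NFKB1 18.4% ± 0.262 with monensin and 28.7% ± 1.46 untreated (SD, n = 3). NFKB2 and RELB together thus took a larger part of the subunit transcripts in every monensin library than in any untreated one. REL made up 1.43% ± 0.136 with monensin and 3.47% ± 0.852 untreated, or 2.50% ± 0.235 with monensin and 5.96% ± 1.43 untreated over its unshared bases.

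Among the IkB transcripts, NFKBIA made up 44.1% ± 1.49 with monensin and 30.7% ± 1.38 untreated. NFKBIB made up 18.1% ± 0.185 with monensin and 28.3% ± 2.48 untreated (SD, n = 3). NFKBIE made up 37.8% ± 1.59 with monensin and 40.9% ± 1.68 untreated, and its shares overlapped between the groups. The sum over the 3 IkB genes was 72.9 ± 0.561 RPKM with monensin and 47.3 ± 3.04 RPKM untreated, and the sum over the 5 subunits was 42.7 ± 0.655 RPKM with monensin and 33.9 ± 0.664 RPKM untreated. The IkB sum was therefore 1.71 ± 0.0239 times the subunit sum in monensin libraries and 1.40 ± 0.118 times in untreated ones.

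**Figure D4:**
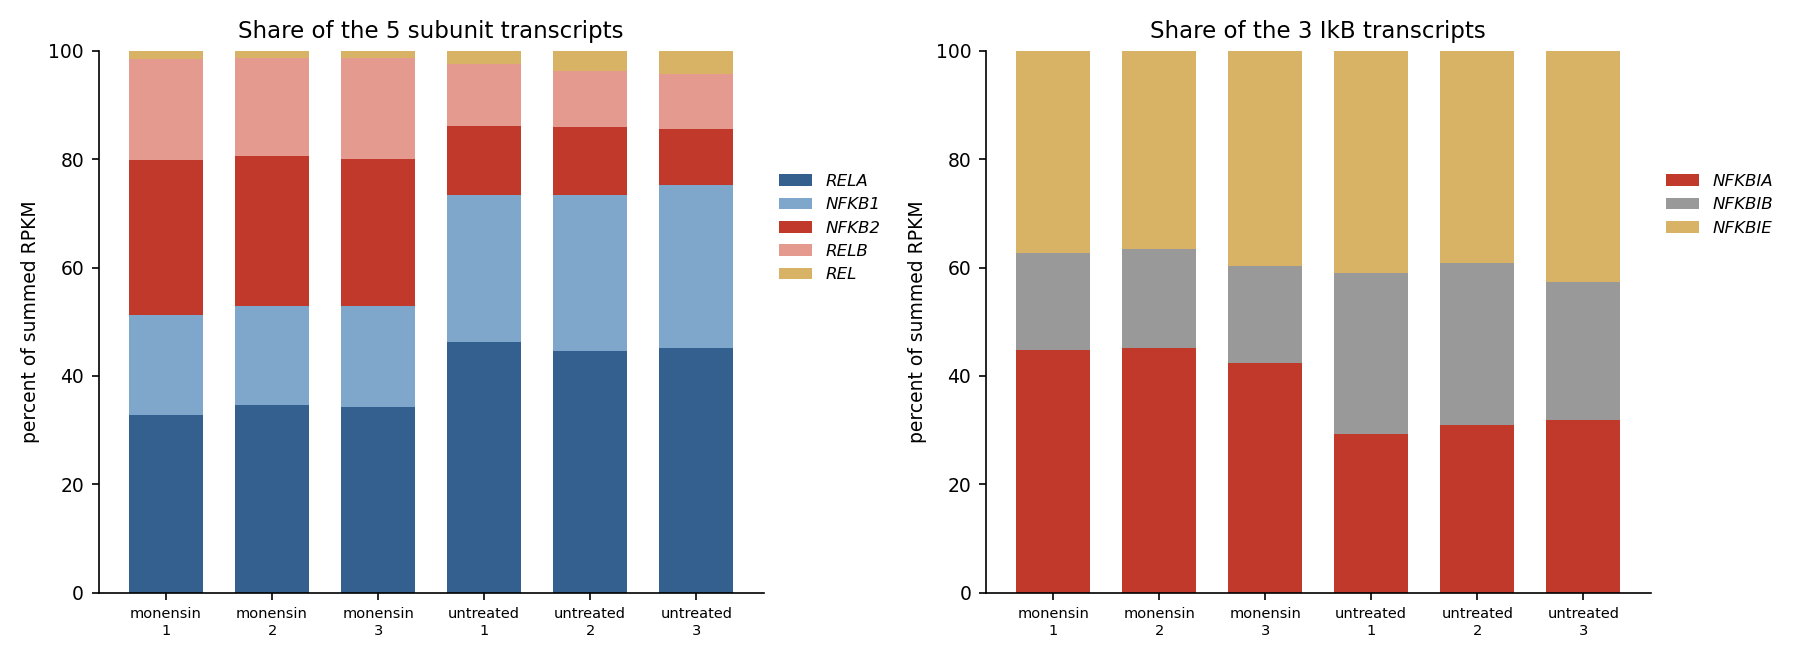
Share of each gene, in percent of summed RPKM within a library, among the 5 subunit transcripts (left) and the 3 IkB transcripts (right), with the 3 monensin libraries left of the 3 untreated ones. NFKB2, RELB and NFKBIA take larger shares in each monensin library than in any untreated library.

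Ratios between genes of one kind, 6 in all, were compared across the libraries. The ratio of NFKB2 to NFKB1 was 1.51 ± 0.0600 with monensin and 0.417 ± 0.0671 untreated, and that of RELB to RELA was 0.542 ± 0.0217 with monensin and 0.234 ± 0.00911 untreated (SD, n = 3). The ratio of NFKBIA to NFKBIB was 2.44 ± 0.0730 with monensin and 1.09 ± 0.143 untreated, and that of NFKBIE to NFKBIB was 2.09 ± 0.102 with monensin and 1.46 ± 0.190 untreated. The ratio of REL to RELA was 0.0423 ± 0.00520 with monensin and 0.0768 ± 0.0196 untreated, or 0.0747 ± 0.00918 with monensin and 0.135 ± 0.0346 untreated over the unshared bases of REL. That of BIRC3 to BIRC2 was 0.0393 ± 0.00556 with monensin and 0.0124 ± 0.00224 untreated. None of the 6 ratios overlapped between the groups. For single genes, the groups did not overlap for 71.1% of those tested, and no such share was worked out for ratios. The ratios were chosen after the levels of their genes were seen, so their separation is a description only. Each ratio gave p = 0.1 in a two-sided exact permutation test (also 0.1 after adjustment over the 6). That is the smallest value that 3 libraries against 3 allow, so the test cannot pass 0.05 and gives no support.

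By level per length (means of 3 libraries), the order of the 10 members with monensin was NFKBIA (32.2 RPKM), NFKBIE (27.6), RELA (14.5), NFKBIB (13.2), NFKB2 (11.9), NFKB1 (7.87), RELB (7.84), TNFAIP3 (4.33), REL (0.612) and BIRC3 (0.449 RPKM). Only the neighbours NFKB1 and RELB overlapped between libraries. In untreated cells the order was NFKBIE (19.4 RPKM), RELA (15.4), NFKBIA (14.5), NFKBIB (13.3), NFKB1 (9.71), NFKB2 (4.03), RELB (3.60), TNFAIP3 (1.21), REL (1.17) and BIRC3 (0.119 RPKM). There NFKBIA overlapped both RELA and NFKBIB, NFKB2 overlapped RELB, and TNFAIP3 overlapped REL. The place of REL turns on its length: over the unshared bases its untreated level of 2.07 RPKM lies above that of TNFAIP3 without overlap. NFKBIA thus stood highest with monensin and below NFKBIE and RELA untreated, and BIRC3 was lowest in both groups.

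The authors' deposited table of regulated genes, which holds 2410 genes of which 1688 (70%) are higher, lists 5 of the members, all as higher: BIRC3 at a log2 fold change of 1.90, TNFAIP3 at 1.83, NFKB2 at 1.54, NFKBIA at 1.12 and RELB at 1.10. These are the same 5 members that rose at least 2-fold in the edgeR fit. The authors' table is of the same comparison in this same series, so the match is no separate support. That deposited table gives no error for them.

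The remaining genes of the pathway were described from lists by role, beside a median log2 fold change of 0.02 over all tested genes and 0.82 over the 10 members. Counts called in each list are to be read beside all tested genes, of which 34.1% were called higher and 33.7% lower, 67.8% in all. Of the ligands 7 were tested, of which 2 rose and 2 fell, and their median was 0.46. TNF, the cytokine that gives its name to the receptor family, had 16.3 ± 1.15 CPM with monensin and 8.76 ± 0.655 CPM untreated (SD, n = 3; log2 fold change 0.90, adjusted p = 1.31e-07). TNFSF10, which encodes the death ligand TRAIL, fell to 6.37 ± 0.847 CPM with monensin, against 16.7 ± 0.411 CPM untreated (-1.39, adjusted p = 2.22e-09), and TNFSF14 fell by 0.35 on the log2 scale (adjusted p = 0.00114). The count of ligands that rose was 4 under total counts, under the stricter filter and without monensin library 1.

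Of the receptors 12 were tested, of which 7 rose and 5 fell, and their median was 0.41. CD14 and LY96, counted among those that rose and in the median, passed the filter on low counts only through the monensin libraries. Without them the middle of the list lies between TLR4 (log2 fold change -0.19) and TNFRSF1A (0.17). The median of 0.41 therefore depends on CD14 and LY96. Under the stricter filter 6 receptors rose. CD40 rose by 1.06 ± 0.11 on the log2 scale (SE; edgeR adjusted p = 3.64e-07), TNFRSF1B by 0.70 (SE 0.05, adjusted p = 5.59e-09) and LTBR by 0.66 (SE 0.05, adjusted p = 1.30e-08). CD40 and LTBR encode receptors known to signal to the MAP3K14 kinase, and TNFRSF1B a second receptor for TNF. The count of receptors that fell was 3 under total counts, DESeq2, the fit without GC and length trends, an adjusted p under 0.01, and without untreated library 3 or monensin library 3.

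Among 16 adaptors and ubiquitin ligases 8 rose and 3 fell, with a median of 0.12. TRAF1, an adaptor of TNF receptors and itself a known NF-kB target, rose to 7.54 ± 0.0982 CPM with monensin, against 3.71 ± 0.750 CPM untreated (SD, n = 3; log2 fold change 1.02, adjusted p = 3.35e-06). RBCK1, part of the ligase that builds linear ubiquitin chains, rose by 0.72 (adjusted p = 2.93e-09) and TICAM1, an adaptor of Toll-like receptors, by 0.60 (adjusted p = 1.25e-06).

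Of 14 genes of the IKK complex and upstream kinases 4 rose and 7 fell, and their median was -0.16. With total counts, and in the fit without GC and length trends, 4 rose and 5 fell. CHUK, the IKK subunit that acts on the NFKB2 precursor, fell to 40.8 ± 3.04 CPM with monensin, against 62.1 ± 2.67 CPM untreated (SD, n = 3; log2 fold change -0.61, adjusted p = 2.66e-07). MAP3K14, which lies upstream of CHUK in that route, rose to 10.1 ± 0.784 CPM with monensin, against 4.54 ± 0.305 CPM untreated (SD, n = 3; log2 fold change 1.15, adjusted p = 7.19e-08). MAP3K8, a kinase held by the NFKB1 precursor, rose by 0.68 ± 0.09 on the log2 scale (SE; edgeR adjusted p = 6.70e-06).

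Of 19 tested genes for other negative regulators and nuclear IkB proteins 7 rose and 7 fell, and their median was 0.07. Scaled by total counts, 9 rose and 4 fell. BCL3, a nuclear IkB protein that binds pairs of NFKB1 or NFKB2 products, rose to 14.3 ± 0.669 CPM with monensin, against 2.89 ± 0.174 CPM untreated (SD, n = 3; log2 fold change 2.30, adjusted p = 1.35e-11). NFKBID, another nuclear IkB protein, rose by 0.69 (adjusted p = 4.52e-06) and NFKBIL1 by 0.70 (adjusted p = 1.26e-07).

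Of 30 other NF-kB target genes 21 were tested, and of these 13 rose and 3 fell, with a median of 0.65. CCL2, CCL3, CXCL2 and BCL2A1 passed the filter only through the monensin libraries, and 3 of these 4 are among the 13. All 4 also enter the median of 0.65. PLAU, which encodes urokinase, rose to 81.0 ± 3.74 CPM with monensin, against 33.5 ± 0.856 CPM untreated (SD, n = 3; log2 fold change 1.27, adjusted p = 1.22e-11). CD83, a marker of activated antigen-presenting cells, rose by 1.54 ± 0.10 on the log2 scale (SE; edgeR adjusted p = 3.15e-09) and ICAM1, an adhesion molecule, by 2.62 (SE 0.10, adjusted p = 2.78e-12). The targets that fell were SOD2, TNFAIP8 and PTX3.

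**Figure D5:**
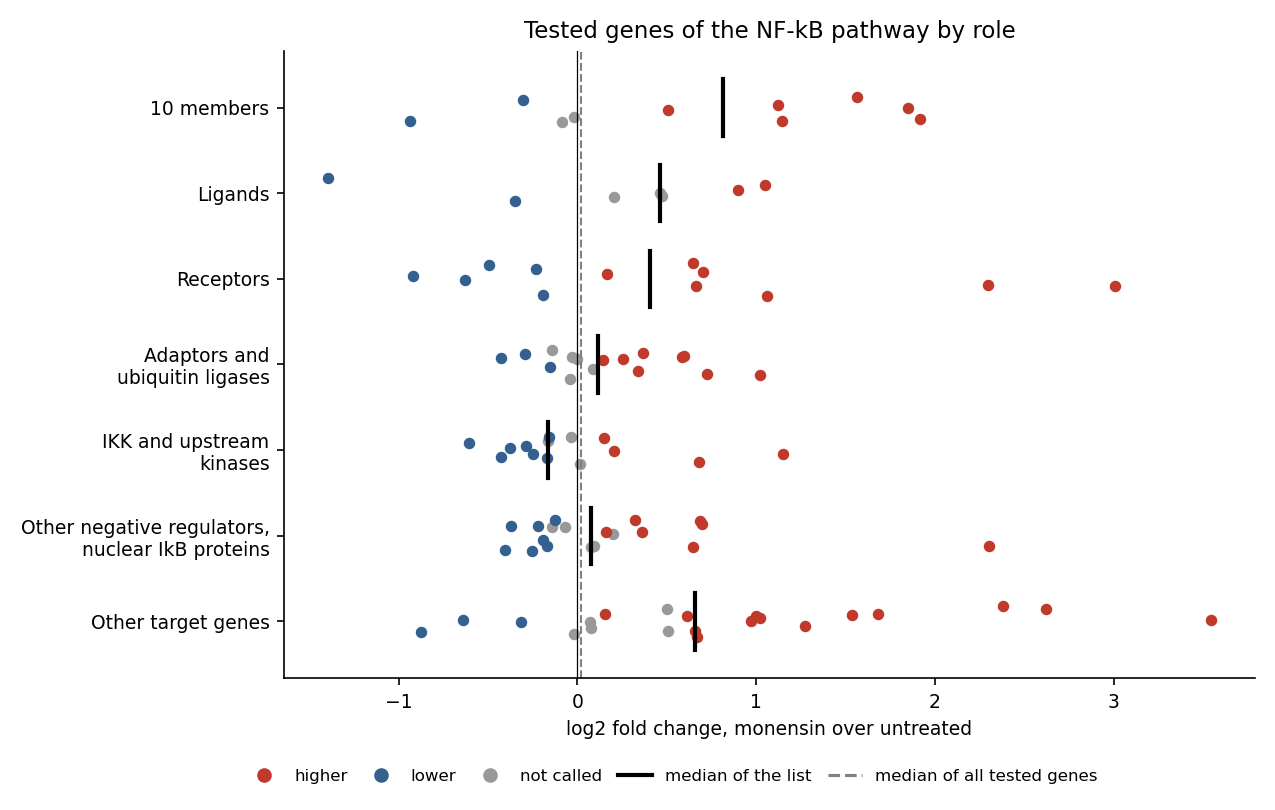
Log2 fold change, monensin over untreated, of the tested genes of each role (points, coloured by call), with the median of each list (black bars) and of all tested genes (dashed line). The 10 members have a median of 0.82 and IKK and upstream kinases one of -0.16. The medians of receptors and other target genes include genes that passed the filter on low counts only through the monensin libraries.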

How the data were processed

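The authors deposited raw, unnormalized read counts for each Ensembl gene in each library. The submitters' processing notes name HISAT2 2.1.0, HTSeq 0.11.1, Trimmomatic 038, bcl2fastq and DESeq2 1.22.2, and the build hg38 (GRCh38); per the labels' protocols, single reads of 75 nt came from a directional kit. The annotation release, overlap mode and strand setting of counting are not given in the sources used here. Also deposited by the authors was a table of regulated genes with log2 fold changes. The 5 tally lines, 19.1% to 22% of tallied alignments, were left out.

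Differences were tested in edgeR 4.0.16 under R 4.3.3 (quasi-likelihood F test, filter on low counts by group, TMM normalization, treatment as the only term). Intervals use the fit's degrees of freedom. CPM is scaled to TMM library sizes; RPKM divides it by the exonic length in GENCODE 29, which holds 58275 of the 58395 genes (99.79%). Nothing says that replicates came from separate cultures, so p-values speak only to the spread among these 6 samples, which may be technical. No 2 libraries held identical counts, and replicates differed by more than sampling noise (chi-square per degree of freedom 1.93 to 5.09).

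Alternatives were RLE size factors, total counts, no filter, a stricter filter that asks for at least 1 CPM in 3 libraries and a sum of 50 counts, DESeq2 1.42.0, a block for replicate number, trends in GC content and length taken out, no mitochondrial genes, each library left out, and an adjusted p under 0.01. The shorter length of REL was added after seeing the data. The members, lists and markers were chosen with earlier results of these data known. Named beside the members are, per list, the 3 called genes with the largest absolute change and an average log2 CPM of at least 2. BIRC2, TNFRSF1A, the targets that fell and genes under other observations were chosen after their values were seen. The ratios and shares within a library were also chosen then.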

Additional observations from a re-analysis of the deposited data

How the results depend on the processing

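Across 15 alternatives, 6 members were called higher under each, and 2 lower under each except the fit without GC and length trends, which called 4 lower (RELA and NFKBIB joined NFKB1 and REL). Leaving out each library in turn gave 6 higher and 2 lower every time. Of 150 log2 fold changes of members under alternatives, 146 kept their direction and call. NFKBIB, which was not called, changed sign under total counts (0.068, adjusted p = 0.282) and the stricter filter (0.00031, adjusted p = 0.997). Under total counts the median of all tested genes was 0.11, against 0.02 with TMM. In the fit without GC and length trends, RELB rose by 0.82, NFKB2 by 1.35, NFKBIA by 0.93 and BIRC3 by 2.17, while REL fell by 0.63; the cause was not tested. Of 180 counts of list genes, 170 stayed within 1.5 times and 10 did not, those of ligands, receptors and negative regulators named in the text.

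The libraries carry replicate numbers, but same-numbered libraries did not deviate together: correlations of their deviations from the group means were -0.12, 0.14 and 0.041, and not every library correlated best with its own number. With the replicate number as a block, 6 members were called higher and 2 lower, and 5515 genes rose and 5435 fell, against 5638 and 5570 without it. Depth limits BIRC3 most, with 17 to 25 counts per untreated library.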

Other observations

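Several target and receptor genes had low levels in untreated cells and were higher with monensin; they were chosen after their values were seen and passed the filter on low counts only through the monensin libraries, so their values are given with no test. BCL2A1, a survival gene of myeloid cells, had 2.61 ± 0.254 CPM with monensin and 0.222 ± 0.113 CPM untreated (SD, n = 3). CCL2, a chemokine for monocytes, had 2.73 ± 0.139 CPM with monensin and 0.519 ± 0.326 CPM untreated, and CCL3 had 0.889 ± 0.115 CPM with monensin and 0.274 ± 0.0415 CPM untreated. CD14 had 2.37 ± 0.289 CPM with monensin and 0.480 ± 0.0691 CPM untreated, and LY96, which acts with it in sensing lipopolysaccharide, had 28, 21 and 19 counts with monensin and 3, 3 and 2 counts untreated. Their receptor TLR4, by contrast, passed the filter in both groups and is among the receptors called lower. TLR4 had 13.5 ± 1.44 CPM with monensin and 15.5 ± 0.596 CPM untreated (log2 fold change -0.19, edgeR adjusted p = 0.0473). IL6, VCAM1 and CD40LG had 0 counts in all 6 libraries, and 3 counts would be 0.117 to 0.129 CPM in a library, counting error only.

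Over the 6 libraries, the genes whose log2 CPM followed BIRC3 most closely among 11564 candidates were WIPF1 (Pearson r = 0.999), C16orf70 and HGSNAT, as a description only, since the libraries share 2 groups. Their own log2 fold changes were 0.42, 0.53 and 0.38, against 1.92 for BIRC3.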
